A study of Mus musculus with 20 samples.

Results

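The heme synthesis genes form a pathway that ends with iron placed in a porphyrin ring, and the data describe 9 of its genes in 10 blood cell types of the mouse. Members were every probe set that the platform annotation gives to Alas1, Alas2, Alad, Uros, Urod, Cpox, Ppox, Fech or Slc25a37, which came to 9 of the 18193 genes with a probe set of their own and to 21 probe sets. Of these 21, 20 belonged to a member alone and 1 was shared by Slc25a37 with another gene, and 16 had a value above 5 on the log2 scale on at least 2 arrays and were tested.

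The cell types were nucleated erythrocytes, granulocytes, monocytes, activated and naive CD8 T cells, activated and naive CD4 T cells, NK cells, B cells and long-term hematopoietic stem cells (LT-HSC). Every group came from wild-type female C57Bl/6 mice aged 12 to 14 weeks, and the T cells called activated had received an LPS treatment per the labels. Each type had 2 Affymetrix arrays, each of which held RNA of 4 pooled samples, from 25000 to 50000 cells sorted by flow cytometry and amplified in a pair of in vitro transcription rounds. The spread behind every p-value is thus that of pools, not of mice. The labels do not tie the pools to animals, and 1 of the naive CD8 arrays has a title that reads CD48+ while its source name reads CD8+.

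In heme synthesis, an aminolevulinate synthase joins glycine and succinyl-CoA in the mitochondrion, cytosolic enzymes assemble and trim the porphyrin ring, and mitochondrial enzymes oxidise it and insert iron. Red cell precursors make heme for hemoglobin with the erythroid synthase Alas2, while most other cells make smaller amounts for cytochromes and other enzymes with the housekeeping synthase Alas1, whose output heme itself restrains. Red cell genes of this pathway are known targets of the transcription factor GATA1.

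Promoter sequence is shown for Alas2 and Cpox, because their RefSeq windows hold a GATA-type motif, and for Alas1, the member called lower in nucleated erythrocytes. Each window is the 250 bases before the annotated gene start on GRCm38.p6, written 5′ to 3′ on the strand of the gene, and capitals mark TTATC, the opposite-strand form of the motif GATAA. The Alas2 window lies at chrX:150547167-150547416 on the plus strand, that of Cpox at chr16:58669958-58670207 on the plus strand, and that of Alas1 at chr9:106247955-106248204 on the minus strand.
Alas2: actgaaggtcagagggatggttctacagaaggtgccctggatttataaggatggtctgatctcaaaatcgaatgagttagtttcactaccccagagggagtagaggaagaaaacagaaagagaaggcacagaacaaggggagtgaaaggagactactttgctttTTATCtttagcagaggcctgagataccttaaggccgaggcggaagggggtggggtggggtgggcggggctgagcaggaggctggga
Cpox: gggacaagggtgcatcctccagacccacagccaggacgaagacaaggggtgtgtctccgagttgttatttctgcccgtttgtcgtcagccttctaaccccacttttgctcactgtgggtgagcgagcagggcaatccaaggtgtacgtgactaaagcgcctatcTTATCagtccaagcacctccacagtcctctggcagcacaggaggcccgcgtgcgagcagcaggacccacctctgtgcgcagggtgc
Alas1: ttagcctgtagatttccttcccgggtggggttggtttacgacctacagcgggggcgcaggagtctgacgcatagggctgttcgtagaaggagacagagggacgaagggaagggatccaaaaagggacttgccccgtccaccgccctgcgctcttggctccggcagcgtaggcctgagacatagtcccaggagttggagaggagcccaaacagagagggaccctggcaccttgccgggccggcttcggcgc
The motif began 86 bases before the start in both Alas2 and Cpox. GATAA, on either strand, was in the windows of 2 of the 7 members searched, and in 22.6% of all 32851 windows. Slc25a37 had no window, and Fech was left out of the member search. CACCC, likewise on either strand, was in 3 of the 7 and in 52.0% of all windows. These are matches of letters in one window and say nothing of binding.

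The deposited values are log2 expression values from the GCRMA method, so a difference of 1 is a 2-fold difference, and levels are compared only within a probe set. Differences were tested with limma over 18726 probe sets, and a call needed a Benjamini-Hochberg adjusted p under 0.05 and a difference of at least 1. In nucleated erythrocytes, markers of the red cell line averaged 12.20 and 12.28 over 8 genes, but the probe set of the globin gene Hba-a1 read only 2.62 and 2.72, near its level elsewhere. The same erythrocyte arrays carried granulocyte markers at means of 10.33 and 11.65 over 7 genes, against 14.22 and 14.40 in granulocytes, with 6 of the 7 above 5. Granulocyte arrays in turn carried erythroid markers at means of 7.34 and 5.44, and the other types had means as low as 2.56. The 4 monocyte markers averaged 6.86 and 7.51 in monocytes and up to 7.93 in granulocytes. Markers of LT-HSC, B, NK and T cells averaged highest in their own types. Although the labels give female mice, the Y-linked gene Eif2s3y read 10.73 or more on 6 arrays, which were the naive CD4 and naive CD8 arrays numbered 1 and all activated T cell arrays, and 3.45 or less on the other 14.

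Nucleated erythrocytes held the highest level of 8 of the 9 genes. Against the mean of the other 9 types, 14 of the 16 tested probe sets, from all members except Alas1, were higher in nucleated erythrocytes, where 18.9% of all tested probe sets were called higher. The 2 lower ones were both of Alas1, against 31.9% of all tested probe sets called lower. The median member difference was 5.70, beside −0.44 over all tested probe sets. Of the 14 that were higher, the second probe sets of Alad (1457306_at) and Cpox (1422493_at) passed the filter only through the erythrocyte arrays and so had to be higher. Without such probe sets, 12 of 14 members were higher and 2 lower, beside 16.7% and 32.9% of 18163 probe sets. All 14 also lay above each of the other 9 types tested singly, where 7.36% of all tested probe sets did. Of the 14 members that passed without the erythrocyte arrays, 12 did, beside 5.15% of such probe sets. In bulk samples, fewer cells of a type and less RNA per cell cannot be told apart.

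**Figure D1:**
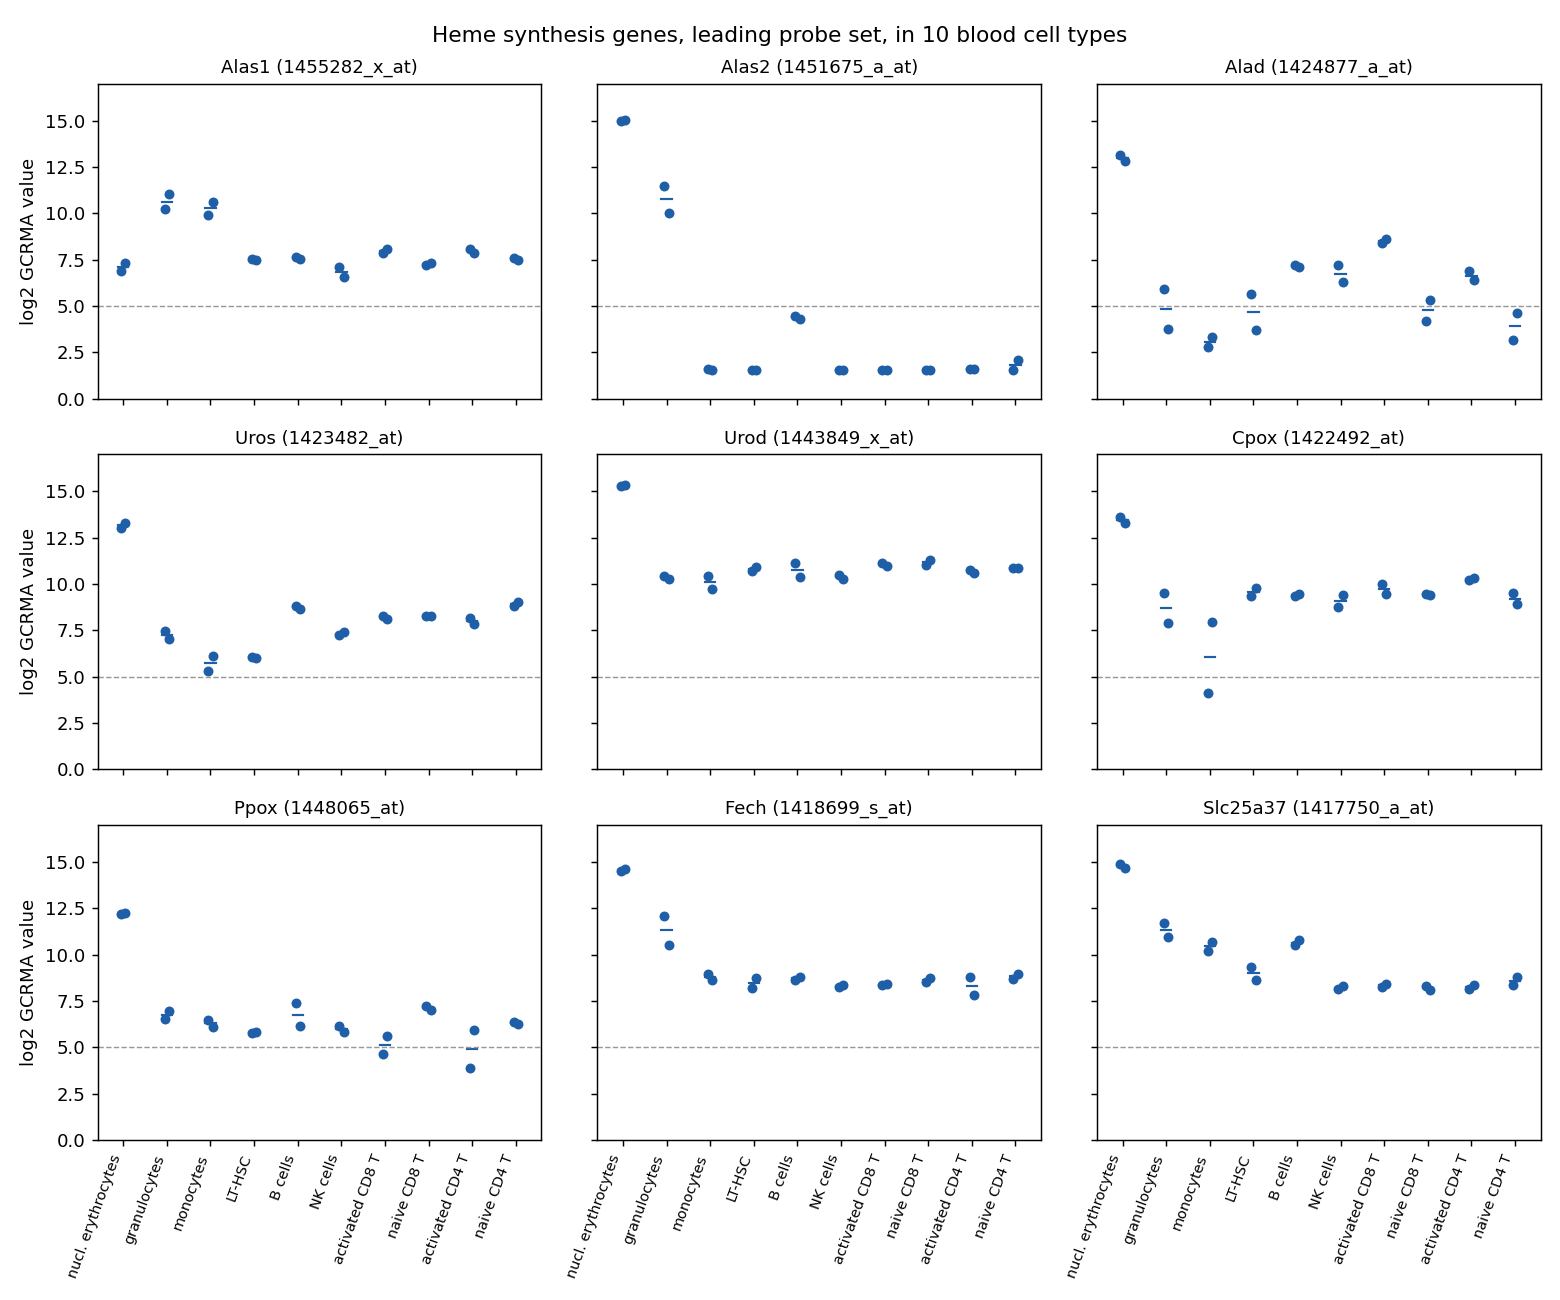
Log2 GCRMA value (y axis) of the leading probe set of each member in 10 cell types (x axis). Points are arrays, bars are means of 2 arrays and the dashed line is the filter value of 5. Nucleated erythrocytes are highest in every panel except that of Alas1, where granulocytes and monocytes are highest.

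The pathway opens with the synthases, which differed in opposite directions in nucleated erythrocytes but were both high in granulocytes. Alas2 (chrX:150547417-150570622), the erythroid form, read 14.98 and 15.02 on the nucleated erythrocyte arrays and 11.49 and 10.02 on the granulocyte arrays. It read 4.47 and 4.32 in B cells, and between 1.53 and 2.07 on the 14 arrays of the other 7 types, so those 3 types did not overlap with each other or with the rest. Its difference in nucleated erythrocytes was 12.08 ± 0.26 (SE, adjusted p = 5.18e-13) against the mean of the other types. With every value under 5 counted as 5, the erythrocytes were at least 1024-fold above each of the 8 types other than granulocytes.

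Alas1 (chr9:106233455-106247954), the housekeeping form, had its lowest level in nucleated erythrocytes by probe set 1424126_at, with 3.97 and 4.78 there and 10.60 and 10.58 in granulocytes. Monocytes had 9.54 and 10.24, and activated CD8 T cells 7.81 and 8.26. The remaining 6 types lay between 5.37 and 7.48. The erythrocyte arrays lay below all 18 others, and the difference was −3.24 ± 0.32 (adjusted p = 1.21e-06). By the leading probe set, 1455282_x_at, nucleated erythrocytes had 6.88 and 7.30, overlapping with NK cells at 7.13 and 6.54. That difference was −1.09 ± 0.23 (adjusted p = 0.00122), and it fell under the 2-fold limit without the granulocyte group (−0.78), without the monocyte group (−0.82), without erythrocyte array 1 (−0.88) or after quantile normalization (−0.58). Both probe sets ranked granulocytes and then monocytes highest, 2 neighbours that did not pass the test against each other (adjusted p = 0.276 and 0.485).

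**Figure D2:**
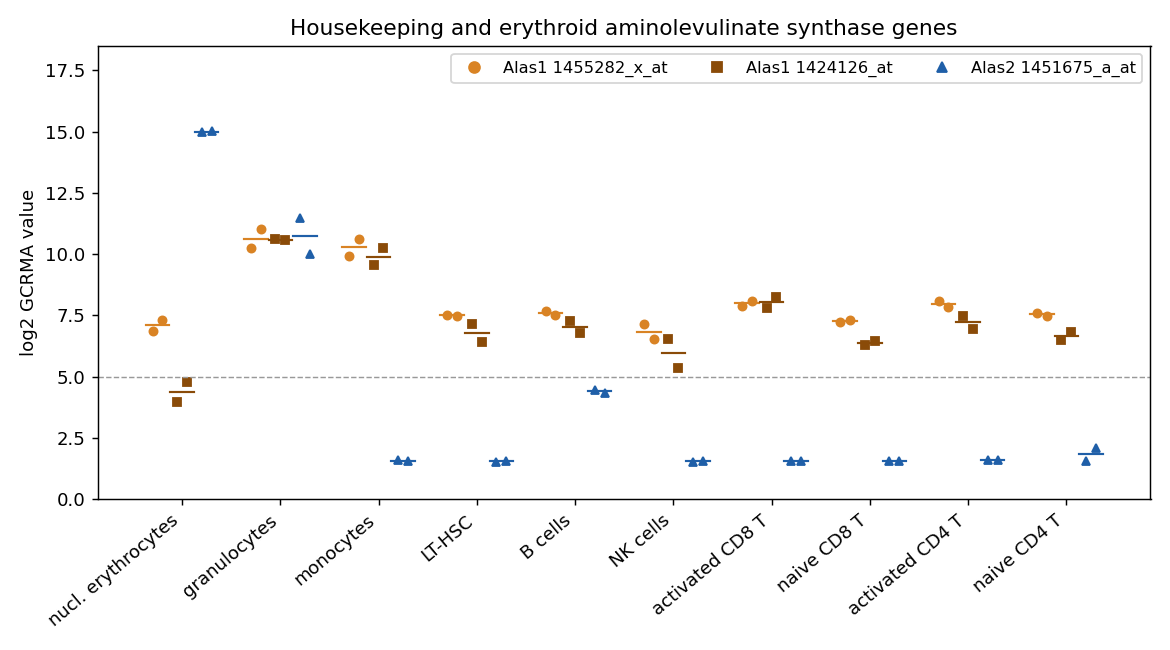
Log2 GCRMA value (y axis) of the Alas1 probe sets (circles and squares) and of Alas2 (triangles) in 10 cell types (x axis), with lines at the means of 2 arrays and a dashed line at 5. Alas2 is at 14.98 and 15.02 in nucleated erythrocytes, where Alas1 1424126_at is at 3.97 and 4.78, and granulocytes hold high values of all 3 probe sets.

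The cytosolic enzymes came next. Alad (chr4:62505984-62520063), which forms the pyrrole porphobilinogen, read 13.16 and 12.85 in nucleated erythrocytes by its leading probe set. Activated CD8 T cells came next with 8.40 and 8.59, and monocytes were lowest with 2.81 and 3.32. The erythrocyte arrays stood 4.51 ± 0.74 above activated CD8 T cells (adjusted p = 4.73e-04). Uros (chr7:133686142-133710467), which closes the ring, read 13.05 and 13.32 in nucleated erythrocytes and 8.83 and 9.04 in naive CD4 T cells. It was lowest in LT-HSC, with 6.04 and 6.00, and in monocytes, with 5.32 and 6.11, which overlapped. The erythrocyte margin over naive CD4 T cells was 4.25 ± 0.27 (adjusted p = 3.66e-08). Urod (chr4:116989965-116994436), which removes carboxyl groups from the ring, had a small range outside the red cell line. Its leading probe set still varied among those types by limma's F test, with a range of at least 1. This probe set read 15.30 and 15.32 in nucleated erythrocytes and from 9.74 to 11.32 on the other 18 arrays. The second Urod probe set read 11.35 and 11.42 against 5.28 to 6.11.

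The late enzymes work in the mitochondrion. Cpox (chr16:58670208-58680391), which oxidises coproporphyrinogen, read 13.61 and 13.28 in nucleated erythrocytes and 10.20 and 10.34 in activated CD4 T cells. Its 2 monocyte arrays disagreed, with 4.11 and 7.97. Its margin in nucleated erythrocytes over activated CD4 T cells was 3.17 ± 0.87 (adjusted p = 0.0222). That call was lost when either erythrocyte array, either activated CD4 array or activated CD8 array 2 was left out, or when dim probe sets were kept (adjusted p between 0.0633 and 0.167). Ppox (chr1:171276991-171281193), which makes protoporphyrin, read 12.18 and 12.27 in nucleated erythrocytes by its leading probe set and from 3.89 to 7.37 elsewhere. By its second probe set it read 11.61 and 11.37 in nucleated erythrocytes, 6.13 and 6.75 in granulocytes, 5.88 and 5.85 in monocytes and at most 5.36 elsewhere.

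Fech (chr18:64456542-64489098), which inserts the iron, read 14.51 and 14.62 in nucleated erythrocytes by its leading probe set. Granulocytes had 12.11 and 10.53, and the other 8 types lay between 7.80 and 8.98. The other 2 tested Fech probe sets gave the same order of means, erythrocytes and then granulocytes. By 1449181_at, however, granulocytes (9.88 and 7.38) overlapped with naive CD4 T cells (7.41 and 7.24). These neighbours did not pass the limma test against each other (adjusted p = 0.153). Slc25a37 (chr14:69241848-69285544), the carrier mitoferrin 1 that brings iron into the mitochondrion, read 14.89 and 14.70 in nucleated erythrocytes and 11.70 and 10.95 in granulocytes. B cells had 10.55 and 10.77, monocytes 10.22 and 10.68, and LT-HSC 9.34 and 8.66. NK and T cells lay between 8.09 and 8.79. The margin over granulocytes was 3.24 ± 0.43 for the leading Fech probe set (adjusted p = 7.32e-05) and 3.47 ± 0.30 for Slc25a37 (adjusted p = 1.08e-06).

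**Figure D3:**
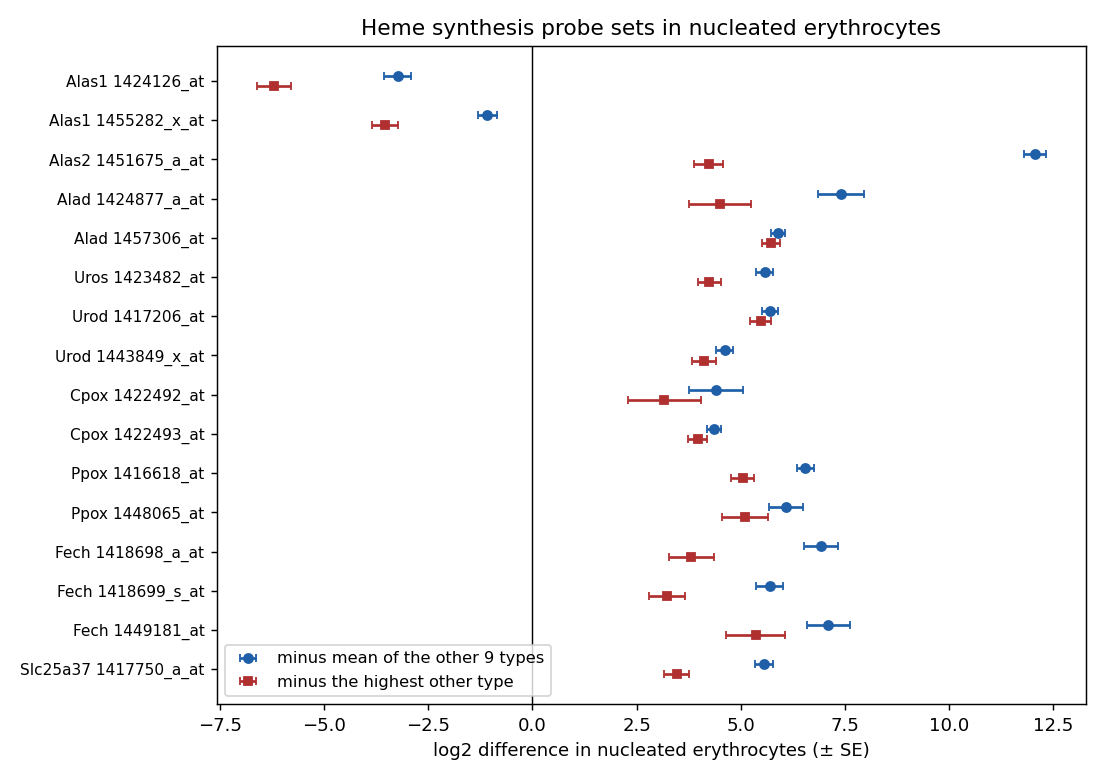
Log2 difference in nucleated erythrocytes (x axis, ± SE) of each of the 16 tested member probe sets (rows, in pathway order). Circles are against the mean of the other 9 types and squares against the highest other type. The 2 Alas1 rows lie left of 0 and the other 14 right of it, with Alas2 farthest at 12.08.

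The 5 probe sets that did not pass the filter were dim in most types. Uros 1440535_at read 8.08 and 4.66 in nucleated erythrocytes and at most 2.05 elsewhere, and Cpox 1440747_at read 5.21 and 3.43 there and at most 3.14 elsewhere. Ppox 1441862_at and Fech 1427696_at were flat at 2.90 to 3.10 and 1.89 to 1.98. The shared Slc25a37 probe set read 2.44 to 2.58 on every array, including those where the other Slc25a37 probe set was above 14.

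Set against LT-HSC, the stem cells from which red cells descend, 14 of 16 probe sets were higher in nucleated erythrocytes and 1 lower, beside 19.2% and 30.0% of all tested probe sets. Of the 14 that passed the filter without the erythrocyte arrays, 12 were higher, beside 17.1% of such probe sets. Alas2 read 1.53 and 1.54 in LT-HSC, and with values under 5 counted as 5 its difference was at least 10.00. Alas1 1424126_at was lower by −2.39 ± 0.42 (adjusted p = 3.24e-04), and 1455282_x_at did not pass (−0.41 ± 0.31, adjusted p = 0.309).

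The partner genes of the pathway, such as carriers, chaperones and iron-sulfur assembly factors, were mostly higher in nucleated erythrocytes too. Of 13 tested, 10 were higher and 1 lower against the mean of the other 9 types, beside 18.9% and 31.9% of all tested probe sets. The median difference was 3.98, beside −0.44 over all tested probe sets. One of the 10, Slc25a38, passed the filter only through erythrocytes. Abcb10, a mitochondrial transporter that binds mitoferrin 1, read 15.13 and 15.19 in nucleated erythrocytes and at most 9.84 elsewhere (7.88 ± 0.35). Abcb6, a porphyrin transporter, rose by 5.93 ± 0.31. Slc25a28, mitoferrin 2, the relative of Slc25a37 used in other cells, was lower (−1.54 ± 0.34).

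Of 11 tested genes of heme breakdown, export and sensing, 6 were higher and 3 lower in nucleated erythrocytes, beside 18.9% and 31.9% of all tested probe sets. Among the 6, Hebp1 passed the filter only through the erythrocyte arrays. Blvrb, a biliverdin reductase, rose by 8.01 ± 0.17, and the porphyrin exporter Abcg2 by 6.53 ± 0.50. The heme exporter Flvcr1 read 7.05 and 6.68 in nucleated erythrocytes and at least 7.55 elsewhere (−3.25 ± 0.22), and Pgrmc1, a heme-binding membrane protein, was also lower (−1.78 ± 0.19). The citric acid cycle is the source of succinyl-CoA. Of its 16 tested genes 1 was higher, Ogdh (2.01 ± 0.35), and 5 were lower, led by the succinyl-CoA ligase subunits Suclg1 (−2.32 ± 0.28) and Suclg2 (−1.90 ± 0.28), and the median was −0.44, the same as over all tested probe sets. The 19 cell cycle genes tested were called higher in nucleated erythrocytes, among them Ube2c (8.98) and Ccnb2 (8.20), but 2 of them, Plk1 and Aurka, passed the filter only through the erythrocyte arrays and so had to be higher. Beside these values stand the granulocyte markers, 6 of 7 of which were higher in nucleated erythrocytes, and macrophage markers, 3 of 4 of which were higher. Their part in the erythrocyte differences was not tested.

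Among the 9 types outside the red cell line, 12 of the 16 probe sets varied by limma's F test with a range of at least 1, beside 86.1% of all tested probe sets. The median range was 3.07 for members and 3.15 over all tested probe sets. The widest range was that of Alas2, 9.22, with granulocytes at the top, and the narrowest were those of the second probe sets of Alad, Urod and Cpox, between 0.42 and 0.48. In LT-HSC, 0 of 16 were higher and 2 lower against the mean of the 8 other non-erythroid types, beside 20.0% and 19.5%. Uros was lower by −1.79 ± 0.20 and Alas2 by −1.56 ± 0.26, and the Alas2 difference shrank to −0.47 without the granulocyte group. The LT-HSC count was 4 without LT-HSC array 1.

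Granulocytes had 8 of 16 probe sets higher and 0 lower against the mean of the 8 other non-erythroid types, where 19.9% and 24.8% of all tested probe sets were called. These were both of Alas1, all 3 of Fech, and 1 each of Alas2, Ppox and Slc25a37. Alas2 rose by 8.81 ± 0.26, or by 5.75 with values under 5 set to 5. The leading Fech probe set rose by 2.76 ± 0.32 and Slc25a37 by 2.36 ± 0.23. Alas1 rose by 3.35 ± 0.32 and 2.76 ± 0.24 by its probe sets. Alad was at 5.90 and 3.78, Uros at 7.48 and 7.04, Urod at 10.46 and 10.29 and Cpox at 9.50 and 7.90 in granulocytes, and the leading probe sets of these 4 genes did not pass the test.

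The granulocyte arrays also carried erythroid markers. All 7 tested erythroid markers were higher in granulocytes, beside 19.9% of all tested probe sets, with a median difference of 3.96. Slc4a1, the red cell anion exchanger, read 13.29 and 11.89 on granulocyte arrays 1 and 2, and Ermap, a red cell membrane protein, 11.16 and 8.97. The red cell regulators Klf1, at 5.32 and 1.91, and Gata1, at 5.26 and 2.72, were above 5 on array 1 only. All 7 were higher on array 1, by 0.90 to 3.41. Alas2 was 1.47 higher on array 1, the Fech probe sets 1.58 to 2.50 and Slc25a37 0.75, and so were the uncalled leading probe sets of Alad (2.12) and Cpox (1.60). Array 1 minus array 2 was 0.02 and −0.80 for Alas1, −0.62 for Ppox 1416618_at and −0.46 for Ppox 1448065_at. Without granulocyte array 1, Alas2 was still higher by 8.07, the leading Fech probe set by 1.97 and Slc25a37 by 1.98, but Fech 1449181_at was not (0.71, adjusted p = 0.316). Nucleated erythrocytes exceeded granulocytes by 4.24 for Alas2, by 4.24 for Slc4a1 and by 5.30 to 9.81 for the other 6 markers. The part of red cell RNA in the granulocyte values was not tested. The 5′ control probe sets stood high in granulocytes too, with 8.26 and 8.23 for Gapdh, against 3.89 to 6.00 in all types but the activated T cells, and 9.15 and 7.59 for actin, against at most 6.31 elsewhere. The part of RNA quality in the granulocyte values was not tested. In B cells, where Alas2 was at 4.47 and 4.32, Slc4a1 read 7.77 and 5.84.

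**Figure D4:**
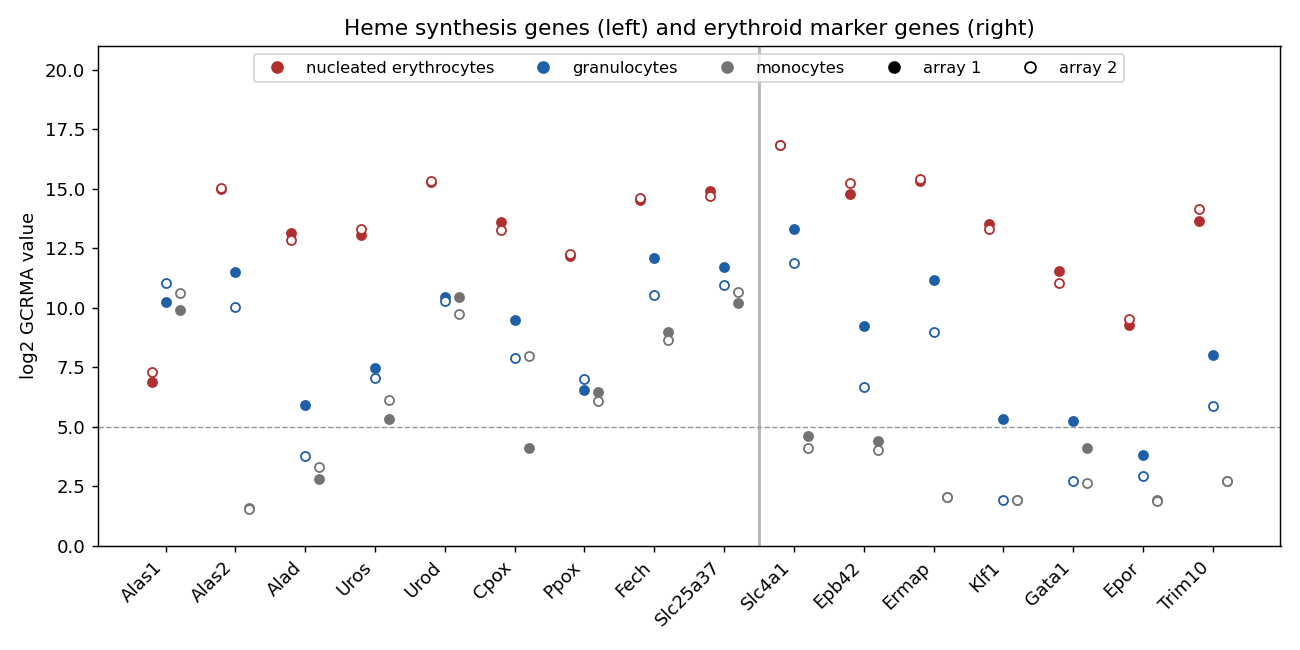
Log2 GCRMA value (y axis) of the leading probe set of each heme synthesis gene and of 7 erythroid markers (x axis) in nucleated erythrocytes, granulocytes and monocytes, with array 1 filled and array 2 open. Granulocyte array 1 lies above array 2 for Alas2, Alad, Uros, Urod, Cpox, Fech, Slc25a37 and each of the 7 markers, and below it for Alas1 and Ppox.

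In monocytes, the other myeloid type, 16 probe sets were tested, of which 4 were higher and 4 lower against the mean of the 8 other non-erythroid types. Over all tested probe sets the shares were 17.9% and 30.2%, so both member counts were near the background. Both Alas1 probe sets were higher (2.56 ± 0.32 and 2.36 ± 0.24), as were Slc25a37 (1.37 ± 0.23) and, barely past the limit, Ppox 1416618_at (1.05 ± 0.21). Alad (−2.84 ± 0.55), Uros (−2.13 ± 0.20), Cpox (−3.38 ± 0.65) and Alas2 (−1.52 ± 0.26) were lower, while both Urod probe sets and the second probe sets of Alad and Cpox were not called. With values under 5 set to 5, the Alad difference was −1.25. The Cpox difference was −1.45 without monocyte array 1 and −5.31 without array 2. The Alas2 difference was −0.43 without the granulocyte group, which no longer passed, and the monocyte arrays lay within the 1.53 to 2.07 of 7 types.

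Of 11 tested genes of heme breakdown, export and sensing, 3 were higher and 3 lower in monocytes. The median difference was −0.46, beside −0.34 over all tested probe sets. Among the higher ones, heme oxygenase Hmox1, which opens the ring, read 6.63 and 8.23 in monocytes (3.10 ± 0.71). Bach1, the repressor that heme releases from DNA, was higher too (2.71 ± 0.23). Of the 13 partner genes 2 were higher and 7 lower in monocytes, Isca2 (−3.73 ± 0.68) and Abcb6 (−3.08 ± 0.31) lowest. Of the 16 citric acid cycle genes 0 were higher and 8 lower there. Over all tested probe sets, 17.9% were higher and 30.2% lower. Erythroid markers averaged 3.04 and 2.74 in monocytes, and granulocyte markers 10.27 and 10.93, with all 7 above 5 on array 1. The part of the granulocyte markers in the monocyte values was not tested.

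The shares of members called between activated and naive T cells were no larger than those over all tested probe sets. In activated against naive CD8 T cells, 2 of 16 probe sets were higher and 1 lower, beside 14.1% and 14.3% of all tested. Alad had 8.40 and 8.59 in activated CD8 T cells, against 4.20 and 5.35 in naive ones, groups that did not overlap (3.72 ± 0.74, adjusted p = 0.00195). Alas1 1424126_at read 7.81 and 8.26 against 6.30 and 6.45 (1.66 ± 0.42, adjusted p = 0.00939), and 1455282_x_at did not pass (0.72 ± 0.31, adjusted p = 0.101). Ppox 1448065_at was at 4.66 and 5.63, against 7.21 and 7.04 in naive CD8 T cells (−1.98 ± 0.55, adjusted p = 0.0151), while its other tested probe set stayed between 4.41 and 4.48 on these arrays.

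In CD4 T cells 1 of 16 was higher and 0 lower by limma, beside 14.2% and 15.9%. That was Alad again, with 6.88 and 6.39 in activated and 3.16 and 4.64 in naive cells (2.73 ± 0.74, adjusted p = 0.0116), a difference of 1.63 with values under 5 set to 5. Uros had an adjusted p of 0.0184 but a difference under the 2-fold limit (−0.92 ± 0.27), and Ppox 1448065_at did not pass (−1.40 ± 0.55, adjusted p = 0.0696); these 2 were lower at an unadjusted 0.05. The second Alad probe set stayed between 4.16 and 4.68 in all T cells. No member passed the test of a difference between the CD8 and CD4 responses, where 0.283% and 0.230% of all tested probe sets were called higher and lower. By limma, 1 of the 16 was under an unadjusted 0.05, Uros (0.84 ± 0.38, adjusted p = 0.867).

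Activated and naive arrays also differed in other respects. The 5′ control probe set of Gapdh read 7.42 to 8.81 on activated and 3.89 to 4.45 on naive arrays, and Eif2s3y was present on all activated arrays and on the naive arrays numbered 1. Without both of those naive arrays, Alad in CD8 T cells still passed (3.14 ± 0.85, adjusted p = 0.0227), but Alad in CD4 (1.99, adjusted p = 0.119), Alas1 (1.58, adjusted p = 0.0652) and Ppox (−1.90, adjusted p = 0.0926) did not. With single arrays left out, the Alad call in CD4 T cells was lost without naive array 1 (1.99) or activated array 1 (2.49), and the Alas1 call in CD8 T cells without naive array 1 (1.58) or activated array 2 (1.43). The Ppox call was lost without either naive CD8 array (−1.90 and −2.07) or activated CD8 array 1 (−1.49). The part of RNA quality was not tested. Among partner genes, 3 were higher and 1 lower of 13 in both T cell types. Over all tested probe sets the shares were 14.1% and 14.3% in CD8 and 14.2% and 15.9% in CD4 T cells. Abcb6 rose by 2.58 ± 0.41 in CD8 and 1.59 ± 0.41 in CD4 T cells, and Slc25a39, a mitochondrial carrier, by 1.77 ± 0.41 and 2.36 ± 0.41. Bach1 was lower by −1.87 ± 0.30 in CD8 and by −2.56 ± 0.30 in CD4 T cells.

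**Figure D5:**
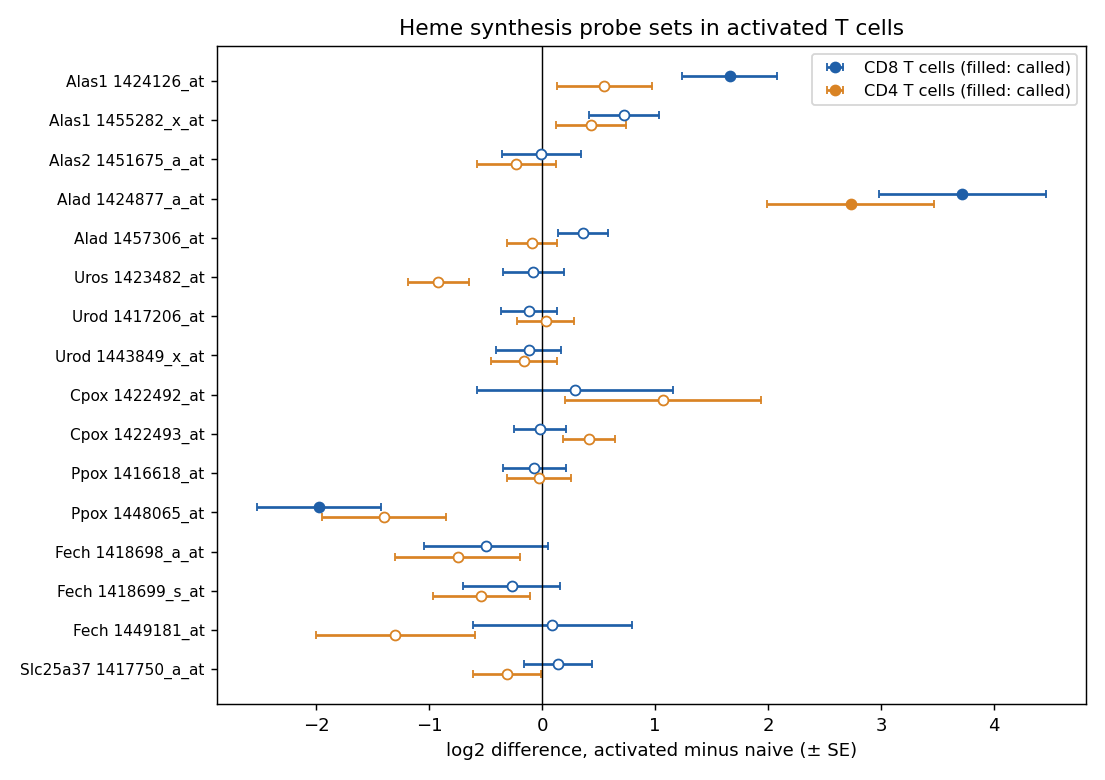
Log2 difference of activated minus naive cells (x axis, ± SE) for the 16 tested member probe sets (rows), in CD8 and CD4 T cells, with filled points for calls. Alad 1424877_a_at lies farthest right in both, at 3.72 and 2.73, and Ppox 1448065_at farthest left, at −1.98 and −1.40.

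Members were compared in pairs over the 20 arrays, by Pearson correlations of leading probe sets that share arrays and the erythrocyte peak. Alas2 correlated with Fech at 0.96 and with Slc25a37 at 0.92, and at 0.91 and 0.76 over the 18 arrays without erythrocytes. Among those 18, Alas2 was above 5 only on the granulocyte arrays (11.49 and 10.02), which also carried erythroid markers. Its correlations over the 18 arrays, also with its nearest genes below, thus rest mainly on the granulocyte arrays. Alas2 correlated with Alad at 0.62 and with Uros at 0.68, but at −0.04 and 0.02 without erythrocytes. Alas1 correlated with Alas2 at 0.15, and at 0.61 without erythrocytes, where granulocytes hold high values of both.

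Outside the members, the genes nearest to Alas2 were the red cell genes Slc4a1 (0.997) and Ermap (0.981), followed by Apol11b (0.98). Nearest to Fech were Car1 (0.99), Trim10 (0.987) and Epb42 (0.986), and nearest to Slc25a37 were Dcaf12 (0.947), H2-T24 (0.937) and Abcb4 (0.935). Urod was nearest to Mgst3 (0.973), Sptb and Bsg (0.969 each), and Cpox to Prdx2 (0.967), Rnf26 (0.94) and Memo1 (0.933). Alad was nearest to Pigq (0.933), Zdhhc5 (0.926) and Ptdss2 (0.907), Uros to Ska2 (0.949), Rusf1 (0.942) and Pigq (0.94), and Ppox to Foxo4 (0.938), Hectd4 (0.937) and Ncapd2 (0.93). Alas1 was nearest to Txnl4b (0.96), Nadk (0.957) and Tmem38a (0.953), and these 3 were still at 0.959 or more without erythrocytes. Over the same 18 arrays the 3 nearest genes were at 0.951 to 0.992 for Alas2, 0.953 to 0.957 for Fech, 0.884 to 0.937 for Cpox and 0.777 to 0.863 for Slc25a37. They were at 0.713 to 0.817 for Alad, 0.760 to 0.828 for Uros, 0.409 to 0.661 for Ppox and 0.245 to 0.505 for Urod. As for Alas2, the Fech values over the 18 arrays rest mainly on the granulocyte arrays. Fech read 12.11 and 10.53 there, and 7.80 to 8.98 on the rest of the 18. Outside erythrocytes, Trim10 and Epb42 were above 5 only on the granulocyte arrays. Probe sets of 1 gene agreed less outside erythrocytes, with 0.19 for Alad and 0.08 for Cpox over those 18 arrays, but 0.97 for Alas1.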

How the data were processed

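RNA of 10 sorted mouse blood cell types was measured on 20 Affymetrix Mouse430_2 arrays, 2 per type. The deposited values are log2 expression values that the authors computed by GCRMA (per the submitters' processing notes), a method that corrects background by probe sequence, normalizes and summarises probes. Its version, and which arrays were normalized jointly, is not given in the sources used here. The table holds 45101 probe sets with values from 0.37 to 16.85, and the number of arrays limits the precision.

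No further normalization was applied. The 64 control probe sets were left out, and the 18726 probe sets above 5 on at least 2 arrays were fitted with limma 3.58.1 in R 4.3.3, with 1 mean per type and 10 residual degrees of freedom. The p-values were adjusted by Benjamini-Hochberg over all 18726. A difference above every other type used the largest of 9 one-sided p-values. The procedure was also tested on simulated data. Symbols came from the platform annotation, updated through gene IDs: 34945 probe sets had 1 symbol, 932 several and 9160 were not listed. Promoters came from RefSeq (GRCm38.p6), and Python 3.11.15 was used for tables.

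Every member probe set was described. A gene was led by its probe set with the highest mean, and of each list at most 2 genes with the largest rise and 2 with the largest fall were named, besides 3 genes most correlated with each member. Slc25a38 and the single marker genes were named after their values were seen. Members and lists were chosen with earlier results of these data known. Alternatives changed the filter, scaling, weights, gene-level summary, replicate block, groups fitted and each array in turn.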

Additional observations from a re-analysis of the deposited data

How the results depend on the processing

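Of 67 single differences under 2123 settings in all, 2094 kept their direction and call, 29 kept their direction but lost the call, and 0 reversed. Settings in which a probe set failed the filter are not among the 2123. Alad 1457306_at and Cpox 1422493_at thus had 18, not 20, settings with 1 array left out against the mean of the other types. Some of the 2123 left out an array of a type outside the contrast, where little change was possible. With only the leading probe set of each gene, 9 members were tested: 9 were called in nucleated erythrocytes, 8 were above every other type, 8 were called against LT-HSC (where the Alas1 call comes from its other probe set) and 4 in granulocytes (where the Ppox call does). The LT-HSC count of 2 was 1 without the granulocyte group, 1 with values under 5 set to 5 (a setting chosen after seeing the data), and between 2 and 4 when 1 array was left out. The count in activated against naive CD4 T cells was 2 when only the groups compared were fitted, 0 without both naive arrays numbered 1, and between 1 and 2 when 1 array was left out. That in CD8 T cells was 1 without both naive arrays numbered 1, and between 1 and 3 when 1 array was left out. For the T cell and LT-HSC counts the cause was not tested. Of single results not yet given, the Ppox 1416618_at call in monocytes was lost after centring arrays (0.97), without NK array 2 (0.99) and with values under 5 set to 5 (0.65), and the CD8 Ppox call also after quantile normalization (−1.67, adjusted p = 0.0524). Quantile normalization moved the median over all tested probe sets to −0.30 in nucleated erythrocytes against the other types, to 0.01 against LT-HSC and to −0.15 in monocytes.

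The labels do not say that the replicate numbers pair the samples. Over 45 pairs of types, deviations of same-numbered arrays correlated between −0.24 and 0.17, with 10 pairs above 0.1. Such values cannot show that the numbers share no origin. Eif2s3y read 12.84 and 11.76 on the naive CD4 and CD8 arrays numbered 1, and 3.23 and 3.36 on those numbered 2. With the replicate block, the 67 single results kept their calls, and the 10 counts changed little or not at all. Nucleated erythrocytes had 16 member probe sets called, 14 higher and 2 lower.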

Other observations

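Of the 13 partner genes of heme synthesis, 2 were higher and 1 lower in LT-HSC, no larger shares than the 20.0% and 19.5% of all tested probe sets. Isca1, an iron-sulfur assembly factor, was higher in LT-HSC than the mean of the 8 other non-erythroid types (3.40 ± 0.31, adjusted p = 1.3e-06), as was Fam210b (1.73 ± 0.22, adjusted p = 3.07e-05), while the porphyrinogen transporter Tmem14c was lower (−4.35 ± 0.36, adjusted p = 5.59e-07). Of 11 genes of heme breakdown, export and sensing, 4 were higher and 1 lower in LT-HSC beside the same shares. The porphyrin exporter Abcg2 read 11.37 and 10.12 in LT-HSC and was higher (4.47 ± 0.50), as was the heme transporter Slc48a1 (2.62 ± 0.33), and the biliverdin reductase Blvra was lower (−2.47 ± 0.43). NK cells had Abcg2 at 11.03 and 10.55, overlapping with LT-HSC. All of these are limma differences over 2 arrays a type.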
